A study of Mus musculus with 20 samples.

Results

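Interferon response and antigen presentation genes were examined in mouse hypothalamus after a diet containing risperidone, an atypical antipsychotic drug that blocks dopamine and serotonin receptors. The set holds 33 named genes, all of which were found by Ensembl identifier among the 55471 genes of the count table, using the GENCODE annotation of GRCm38. They comprised 3 signalling factors, 4 sensors of RNA and other nucleic acids, 16 antiviral effectors and regulators, 4 interferon-inducible GTPases and 6 genes of antigen presentation. The genes lie on 14 chromosomes, and 5 of the 6 antigen presentation genes lie on chromosome 17.

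RNA from hypothalamus slices of wild-type C57BL/6 mice was sequenced in 20 libraries. Risperidone was given in the diet for 4 weeks under pair-feeding (6 libraries), in which the amount of food is set by that eaten by other mice, or with free access to food (ad libitum, 7 libraries). The third group received control diet ad libitum (7 libraries). No pair-fed group on control diet was analysed here, so pair-fed risperidone against control differs in diet and in feeding. The labels give neither age nor sex, and do not state that every library is a separate mouse. The p-values therefore measure the spread between these libraries, which may in part be technical.

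Type I interferons bind a receptor whose kinases start the assembly of a transcription factor complex that holds Stat2 and Irf9. This complex, ISGF3, binds the interferon-stimulated response element (ISRE) in promoters of antiviral genes. Interferon gamma acts at another element, GAS, and is the stronger inducer of the GTPases and of antigen presentation genes. In brain tissue most of these genes are transcribed at a low basal level. The genes are induced in microglia, vascular cells, border macrophages, astrocytes and neurons when interferon is present.

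The promoter letters shared by many of these genes were read from RefSeq windows of GRCm38.p6 that run from 250 bases before to 50 bases after the annotated start. Such windows were matched for 27 of the 33 genes, leaving Dhx58, Zbp1, Usp18, Rtp4, Ifi27 and Parp14. The ISRE letters, GAAA, then any 2 bases, then GAAA, searched on both strands with overlapping matches counted, occurred in 15 of the 27 genes (55.6%), against 3.99% of the 27025 genes with a window. By role, they occurred in 4 of 4 GTPases, 2 of 2 sensors, 7 of 12 effectors, 1 of 3 signalling factors and 1 of 6 antigen presentation genes. The GAS letters TTCNNNGAA occurred in 7 of the 27 genes (25.9%), against 9.55% of all genes. A match of letters is a description of these windows and shows neither binding nor regulation.

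One site of 30 bases is shown for 8 genes of different roles, 5′ to 3′ on the strand of the gene, because the same short element recurs in all of them. Capitals mark the ISRE letters or their reverse complement, and runs of capitals longer than the motif are overlapping matches. Isg15 (chr4:156200871-156200900, minus strand), Gbp3 (chr3:142559992-142560021, plus strand), Oas1a and Irgm1 have such overlaps.
Isg15: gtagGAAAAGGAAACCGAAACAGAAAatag
Oas1a: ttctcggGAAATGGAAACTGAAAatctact
Ifit3: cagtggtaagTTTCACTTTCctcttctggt
Irgm1: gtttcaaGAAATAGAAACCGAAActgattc
Gbp3: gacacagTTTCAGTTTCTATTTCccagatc
Ifih1: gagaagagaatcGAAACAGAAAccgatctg
Stat2: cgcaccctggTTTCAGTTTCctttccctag
B2m: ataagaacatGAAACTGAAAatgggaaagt
The sites of Oas1a (chr5:120907523-120907552), Irgm1 (chr11:48871428-48871457) and Ifih1 (chr2:62646206-62646235) are on the minus strand. Those of Ifit3 (chr19:34583363-34583392), Stat2 (chr10:128270266-128270295) and B2m (chr2:122147538-122147567) are on the plus strand.

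Longer upstream sequence is shown for 2 genes whose fold changes were among the lowest in ad libitum risperidone, to set a promoter with the letters beside a promoter without them. For Ifit1, the 232 bases of the window before the gene's annotated span (chr19:34640639-34640870, plus strand) hold the ISRE letters in reverse complement at 2 places. For Irf7, the 193 bases before its span (chr7:141266482-141266674, minus strand) hold no match.
Ifit1: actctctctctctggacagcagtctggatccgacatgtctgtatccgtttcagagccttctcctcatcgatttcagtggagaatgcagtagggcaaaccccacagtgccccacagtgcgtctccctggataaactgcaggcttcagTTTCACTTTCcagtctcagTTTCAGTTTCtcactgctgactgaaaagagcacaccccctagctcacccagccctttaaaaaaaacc
Irf7: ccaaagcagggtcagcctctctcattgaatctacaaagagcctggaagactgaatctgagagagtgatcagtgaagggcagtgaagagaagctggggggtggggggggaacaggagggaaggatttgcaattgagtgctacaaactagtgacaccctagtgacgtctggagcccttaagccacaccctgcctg
Irf7 had the lowest fold change of the set in the mean of both risperidone groups. The lack of a match says only that these letters are not in this window.

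Ad libitum library 3 held 9748005 counts, and the other 19 libraries held 17316043 to 18606543 each. Its TMM scaling factor also stood apart, at 0.731 against 0.940 to 1.05 in the other libraries. Regional markers were shifted in most ad libitum risperidone libraries, and most in library 1. Summed markers of cortex, hippocampus and amygdala reached 1006 CPM (read counts scaled to library size by TMM) in ad libitum library 1 and 131 CPM in library 2. In 4 of the 7 libraries (1, 2, 5 and 6) they were above every pair-fed and control library, and in 5 (also library 7) above every control library. Their medians were 61.8 CPM in pair-fed risperidone, 75.8 CPM in ad libitum risperidone and 56.4 CPM in control libraries. Summed hypothalamus markers, such as Pomc and Agrp, were below every control library in 6 of the 7 (1, 2, 3, 5, 6 and 7). They were below every pair-fed and control library in 2 of the 7 (1 and 2). Their medians were 1263 CPM in pair-fed risperidone, 972 CPM in ad libitum risperidone and 1297 CPM in control libraries. This list holds feeding peptides such as Pomc, Agrp and Npy. Whether its sum differed by the tissue taken or by expression of these genes was not tested. Of the cortex list, 9 of 9 tested genes lay above 0 in ad libitum risperidone against control (8 at an unadjusted p under 0.05, median log2 fold change 1.58), and of the hypothalamus list 11 of 12 lay below 0 (6 at that threshold, median -0.29), and no gene of either passed the adjusted threshold. Results are therefore also given without some of the libraries that stood apart in the cortex, hippocampus and amygdala markers or in depth. Libraries below every control library in hypothalamus markers remained in each of these fits. Of the 33 genes, 32 passed the low-count filter and were tested. The exception was Zbp1, a sensor of Z-form nucleic acids, with 0.216 to 1.78 CPM in pair-fed risperidone, 0 to 0.417 CPM in ad libitum risperidone and 0.216 to 1.05 CPM in control libraries.

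In ad libitum risperidone against control, no interferon response or antigen presentation gene passed the test, but 29 of the 32 had fold changes below 0. The median log2 fold change was -0.31, with a range from -0.72 for Ifit1 to 0.08 for Stat2, against a median of 0.01 over all genes tested, of which 47.1% lay below 0. The test was the quasi-likelihood F test of edgeR with Benjamini-Hochberg adjustment over 17893 genes, and 0.0615% of all genes were called at an adjusted p under 0.05. The smallest adjusted p among the 32 genes was 0.180. At an unadjusted p under 0.05, 13 of the 32 were lower and 0 were higher, against 5.97% of all genes lower and 7.14% higher. DESeq2 and limma-voom called none of the 32 either, with 12 and 11 lower at an unadjusted p under 0.05. The libraries of the groups overlapped for all 32 genes, against 0.330% of all genes without overlap. In bulk tissue, fewer cells of a type and less RNA per cell cannot be told apart.

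In pair-fed risperidone against control, the genes were spread evenly around 0. Fold changes lay below 0 for 15 genes and above 0 for 17, with a median log2 fold change of 0.00 and a range from -0.28 for Irf7 to 0.39 for Psmb8. None was called by edgeR, against 0.486% of all genes, and the smallest adjusted p was 0.792. At an unadjusted p under 0.05, 0 were lower (3.60% of all genes) and 0 higher (3.06%). DESeq2 likewise called none and gave 0 at that unadjusted threshold, while limma-voom called none and gave 1 higher. The groups did not separate for any of the 32, against 1.20% of all genes.

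In pair-fed against ad libitum risperidone, which share the drug diet and differ in feeding, 30 of the 32 genes had fold changes above 0. The median log2 fold change was 0.30, with a range from -0.06 for Stat2 to 0.69 for Ifit1 and Gbp2, against a median of -0.00 over all genes. None passed the edgeR test, which called 0.397% of all genes, and the smallest adjusted p was 0.176. At an unadjusted p under 0.05, 15 were higher and 0 lower, against 6.09% of all genes higher and 7.44% lower. DESeq2 and limma-voom called none, with 14 and 12 higher at that threshold. Libraries of the groups overlapped for all 32, against 0.632% of all genes without overlap. This comparison shares the ad libitum libraries with the comparison of ad libitum risperidone against control, so their directions are not independent of each other. Since the drug was in the food, a set amount of food may also set the dose, and intake was not analysed here. The cortex, hippocampus and amygdala markers differed here too, with 9 of 9 below 0 and a median of -1.29.

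When both risperidone groups were averaged and set against control, 28 of the 32 genes lay below 0, with a median log2 fold change of -0.15. None was called, against 0.330% of all genes, and the smallest adjusted p in the edgeR test was 0.410, for Irf7. At an unadjusted p under 0.05, 3 genes were lower (Irf7, Ifih1 and Ifi35) and 0 higher, against 4.27% and 3.55% of all genes. DESeq2 gave 3 and limma-voom 2 lower at that threshold, and neither called any. Libraries overlapped for all 32 genes, against 0.0671% of all genes without overlap.

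**Figure D1:**
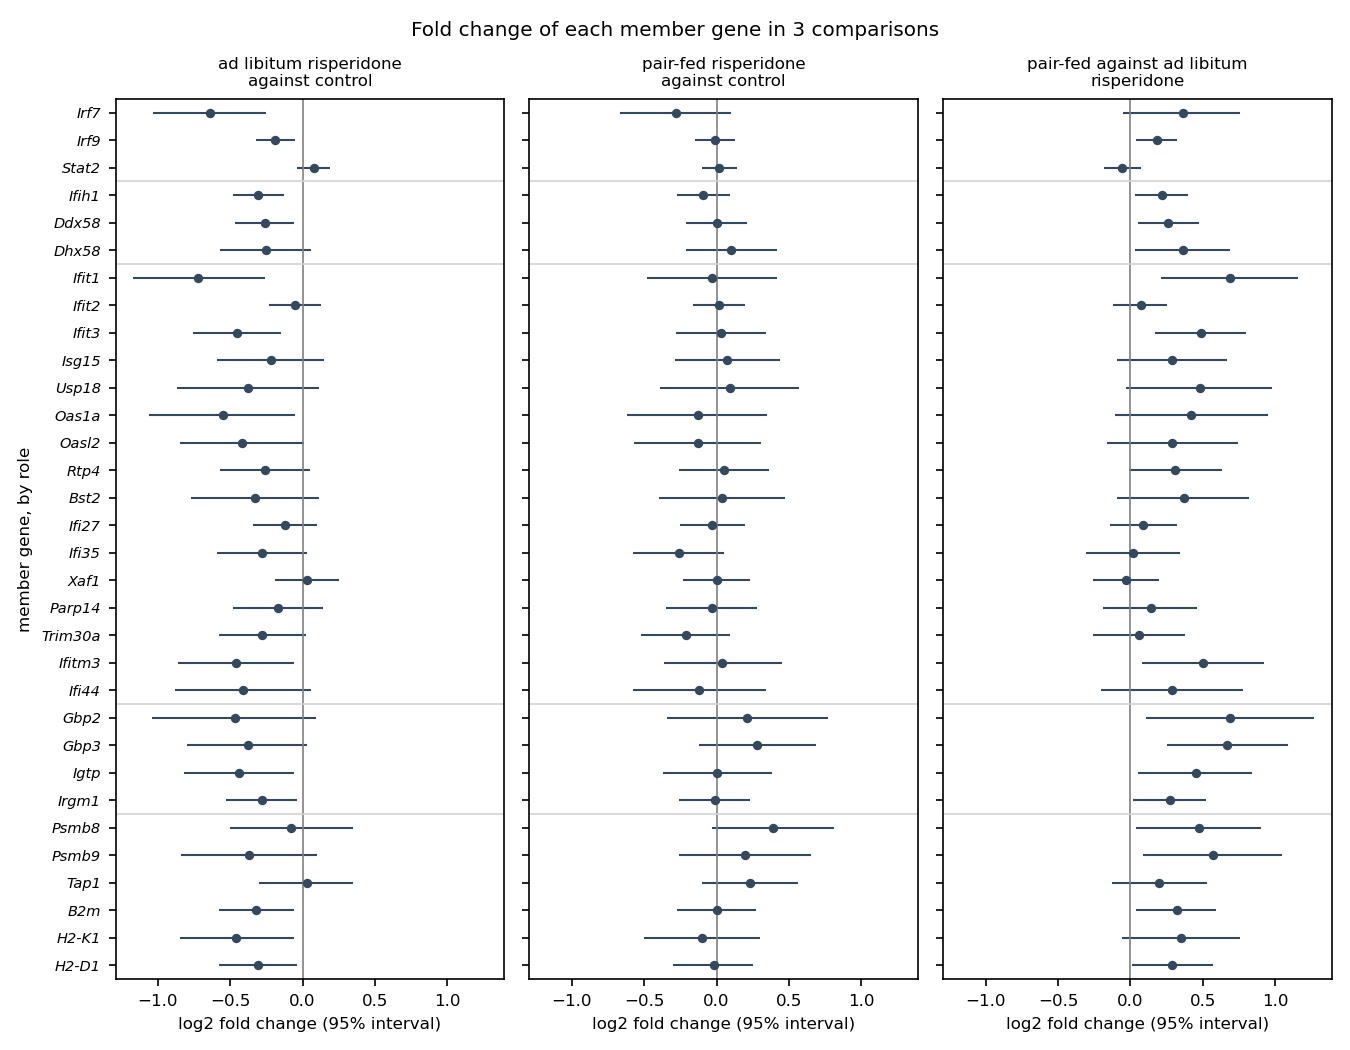
Fitted log2 fold change (x axis, points) with its 95% interval (bars) of the 32 tested genes in 3 comparisons, grouped by role from signalling factors at the top to antigen presentation at the bottom. Most points lie left of 0 in ad libitum risperidone against control, on both sides of 0 in pair-fed risperidone against control, and right of 0 in pair-fed against ad libitum risperidone, and none of the genes passed the adjusted threshold.

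Among the signalling factors, Irf7, the factor that amplifies the type I interferon response, had levels from 1.73 to 4.45 CPM in pair-fed risperidone (median 3.02), 1.69 to 3.16 CPM in ad libitum risperidone (median 2.30) and 2.92 to 4.69 CPM in control libraries (median 3.68). Every ad libitum risperidone library lay below the control mean, but ad libitum library 5 reached into the control range. Its log2 fold change was -0.64 ± 0.186 (SE) in ad libitum risperidone against control, with an adjusted p of 0.189 in the edgeR test. In pair-fed risperidone against control it was -0.28 ± 0.187, and pair-fed libraries split, with 4 of 6 below the control mean.

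Irf9, the DNA-binding subunit of ISGF3, ranged over 20.1 to 26.5 CPM in pair-fed risperidone (median 22.8), 17.0 to 22.2 CPM in ad libitum risperidone (median 20.5) and 21.1 to 24.5 CPM in control libraries (median 23.3). The spread was small within each group, and the ad libitum and control ranges overlapped at their ends. Its log2 fold change was -0.19 ± 0.0646 in ad libitum risperidone against control (adjusted p = 0.246) and 0.18 ± 0.0671 in pair-fed against ad libitum risperidone (adjusted p = 0.268). Stat2, the partner of Irf9 in ISGF3, did not share this direction. It had 23 to 28.9 CPM in pair-fed risperidone (median 25.9), 24.6 to 30.5 CPM in ad libitum risperidone (median 26.8) and 23.7 to 27.8 CPM in control libraries (median 25.3). The log2 fold change of Stat2 in ad libitum risperidone against control was 0.08, with a 95% interval from -0.04 to 0.19. Irf9 has an exon that overlaps Rnf31 on the same strand, and Irf7 one that overlaps Phrf1 on the opposite strand. Part of their counts may belong to these neighbours. No window of 150 bases of Irf9 matched another gene, and the share of reads concerned was not measured.

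The tested sensors were Ifih1 (MDA5), Ddx58 (RIG-I) and Dhx58 (LGP2), helicases that bind double-stranded RNA in the cytoplasm. Ifih1 had 4.59 to 6.18 CPM in pair-fed risperidone (median 4.84), 4.05 to 4.89 CPM in ad libitum risperidone (median 4.38) and 4.78 to 6.05 CPM in control libraries (median 5.73). All 7 ad libitum risperidone libraries lay below the control mean, and the ranges met only between 4.78 and 4.89 CPM. At -0.31 ± 0.0863 (SE) on the log2 scale, Ifih1 had the smallest p of the set in this comparison, but its adjusted p was 0.180 in the edgeR test.

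Ddx58 ranged over 6.37 to 10.1 CPM in pair-fed risperidone (median 8.20), 5.44 to 7.73 CPM in ad libitum risperidone (median 7.08) and 7.38 to 9.10 CPM in control libraries (median 8.43). Again every ad libitum risperidone library was below the control mean, with ad libitum library 1 well below the others. The log2 fold changes of Ddx58 were -0.26 ± 0.0990 in ad libitum risperidone against control and 0.26 ± 0.103 in pair-fed against ad libitum risperidone, with adjusted p of 0.283 and 0.297. Dhx58, which modulates the other helicases, had log2 fold changes of -0.25 and 0.36 in the same comparisons. In pair-fed risperidone against control the 3 helicases lay between -0.09 and 0.10.

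**Figure D2:**
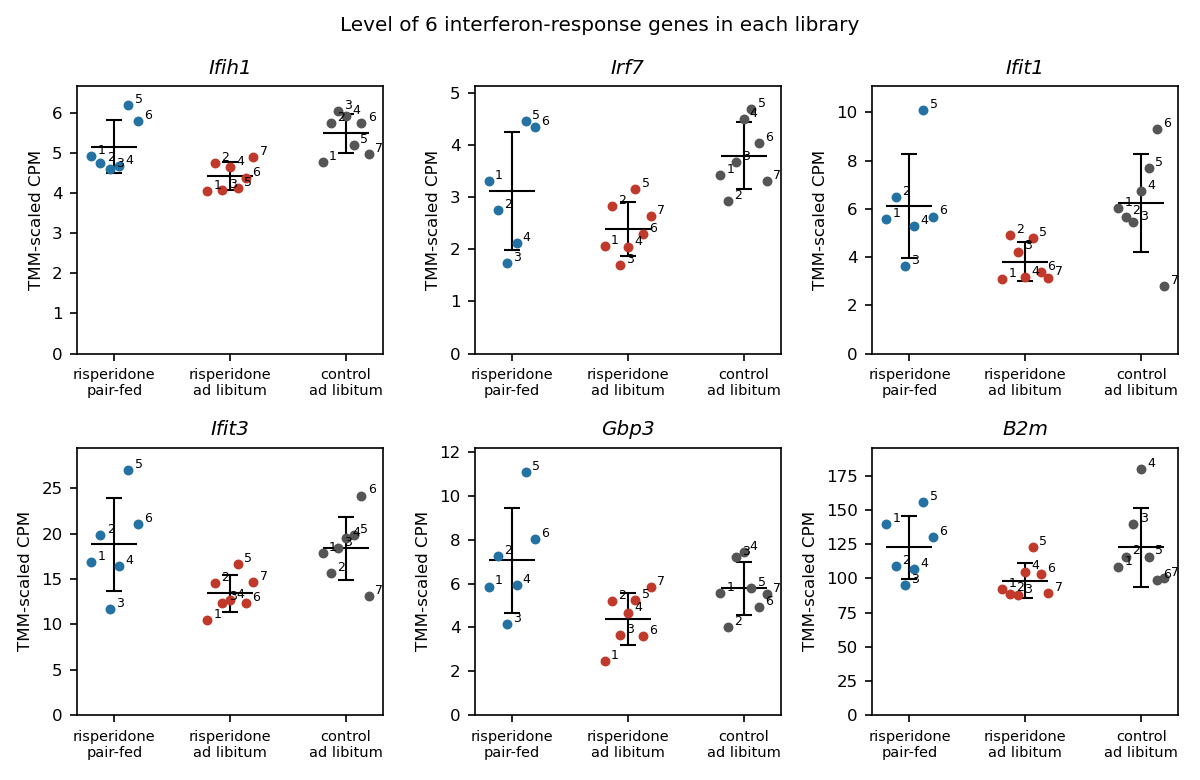
TMM-scaled CPM (y axis, from 0) of 6 genes in each library (points, numbered by library) of pair-fed risperidone, ad libitum risperidone and control, with the mean and SD of each group (bars). The groups overlap for every gene, pair-fed library 5 is the highest of its group for all 6 genes, and control library 4 is the highest control for Gbp3 and B2m.

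Among the antiviral effectors, the Ifit genes, whose proteins bind viral RNA and block its translation, differed from each other. Ifit1 had 3.62 to 10.1 CPM in pair-fed risperidone (median 5.64), 3.08 to 4.90 CPM in ad libitum risperidone (median 3.37) and 2.80 to 9.31 CPM in control libraries (median 6.02). Its lowest value of all belonged to control library 7, below every ad libitum risperidone library. The log2 fold change of Ifit1 was -0.72 ± 0.220 (SE) in ad libitum risperidone against control, and 0.69 ± 0.228 in pair-fed against ad libitum risperidone, with adjusted p of 0.196 and 0.214 in the edgeR test. In pair-fed risperidone against control it was -0.03 ± 0.216.

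Ifit3 ranged over 11.7 to 27.0 CPM in pair-fed risperidone (median 18.4), 10.5 to 16.6 CPM in ad libitum risperidone (median 12.7) and 13.1 to 24.2 CPM in control libraries (median 18.4). Ifit3 had a log2 fold change of -0.45 ± 0.148 in ad libitum risperidone against control (adjusted p = 0.224) and 0.49 ± 0.153 in pair-fed against ad libitum risperidone (adjusted p = 0.193). Ifit2, their neighbour on chromosome 19, had levels of 11.8 ± 1.11 CPM in pair-fed risperidone, 11.1 ± 1.78 CPM in ad libitum risperidone and 11.6 ± 0.798 CPM in control libraries (SD). Its log2 fold changes lay within 0.07 of 0 in all 3 pairwise comparisons. Windows of 150 bases that match another gene made up 18.5% of Ifit3 (with Ifit3b) and 32.4% of Oas1a (with Oas1g), so the counts of these genes are less certain, while 26 of the 33 genes shared none.

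Of the 16 effectors and regulators, 15 had fold changes below 0 in ad libitum risperidone against control, with a median of -0.30, and 15 had fold changes above 0 in pair-fed against ad libitum risperidone, with a median of 0.29. Ifitm3, which blocks fusion of enveloped viruses, averaged 17.0 ± 5.09 CPM in pair-fed risperidone, 12 ± 3.15 CPM in ad libitum risperidone and 16.5 ± 4.54 CPM in control libraries. Its log2 fold change in ad libitum risperidone against control was -0.46 (95% interval -0.86 to -0.06, adjusted p = 0.322 in the edgeR test). Oas1a, which makes the oligoadenylates that activate RNase L, had a fold change of -0.55 (-1.06 to -0.05, adjusted p = 0.332) at levels of at most 1.08 CPM in any library. Both intervals leave out 0 before adjustment for the number of genes, and neither gene was called.

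Isg15, a ubiquitin-like modifier of proteins, and Usp18, the protease that removes it and restrains the receptor, had log2 fold changes of -0.22 and -0.38 in ad libitum risperidone against control and of 0.07 and 0.09 in pair-fed risperidone against control. Usp18 varied widely among ad libitum risperidone libraries, from 0.726 CPM in library 1 to 3.24 CPM in library 3. Oasl2, a relative of Oas1a, had a fold change of -0.42, Ifi44 of -0.41, Bst2 (tetherin, which holds budding virions at the cell surface) of -0.33 and Rtp4 of -0.26 in ad libitum risperidone against control. Parp14, an ADP-ribosyltransferase, was at -0.17 and Xaf1, an antagonist of the apoptosis inhibitor XIAP, at 0.03 there. The intervals of all of these include 0.

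Ifi27, an interferon-induced mitochondrial protein, had 20.5 to 28.7 CPM in pair-fed risperidone (median 24.1), 17.4 to 28.2 CPM in ad libitum risperidone (median 22.6) and 21.3 to 31.5 CPM in control libraries (median 23.6). The 3 groups covered nearly the same range, and its log2 fold change was -0.12 ± 0.106 in ad libitum risperidone against control. Ifi35 and Trim30a, a regulator of inflammatory signalling in mice, were the effectors with the smallest p in pair-fed risperidone against control.
Ifi35 had 2.43 to 4.18 CPM in pair-fed risperidone (median 3.38), 2.61 to 3.89 CPM in ad libitum risperidone (median 3.26) and 2.96 to 5.65 CPM in control libraries (median 3.58). Trim30a had 2.18 to 2.89 CPM in pair-fed risperidone (median 2.49), 1.92 to 3.22 CPM in ad libitum risperidone (median 2.53) and 1.89 to 3.63 CPM in control libraries (median 3.09). The log2 fold changes against control were close in both feeding conditions, at -0.26 in pair-fed and -0.28 in ad libitum risperidone for Ifi35, and at -0.21 in pair-fed and -0.28 in ad libitum risperidone for Trim30a. The edgeR adjusted p of Ifi35 was 0.845 in pair-fed and 0.426 in ad libitum risperidone, and that of Trim30a 0.889 in pair-fed and 0.416 in ad libitum risperidone.

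The 4 GTPases, which act on membranes of pathogen-containing vacuoles, had the widest difference between the risperidone groups of any role, with a median log2 fold change of 0.56 in pair-fed against ad libitum risperidone. Pair-fed library 5 stood apart here. Its mean log2 difference from the control mean over these genes was 0.90, against -0.41 to 0.14 in the other pair-fed libraries. Gbp3 had 4.16 to 11.1 CPM in pair-fed risperidone (median 6.60), 2.48 to 5.85 CPM in ad libitum risperidone (median 4.64) and 4.00 to 7.43 CPM in control libraries (median 5.57). Its log2 fold change in pair-fed against ad libitum risperidone was 0.67 ± 0.203 (SE), the smallest p of the set in that comparison, with an adjusted p of 0.176 in the edgeR test. Against control the fold change of Gbp3 was 0.28 ± 0.196 in pair-fed and -0.38 ± 0.198 in ad libitum risperidone. Pair-fed library 5 gave the highest value, 11.1 CPM, and pair-fed library 3 the lowest of its group.

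Irgm1 ranged over 8.54 to 13.1 CPM in pair-fed risperidone (median 9.36), 6.34 to 10.2 CPM in ad libitum risperidone (median 8.15) and 8.33 to 13.3 CPM in control libraries (median 9.25). The fold change of Irgm1 on the log2 scale was -0.28 ± 0.116 in ad libitum risperidone against control and -0.01 ± 0.118 in pair-fed risperidone against control. Gbp2 and Igtp had fold changes of -0.47 and -0.44 in ad libitum risperidone against control, and of 0.21 and 0.00 in pair-fed risperidone against control. For Gbp2, pair-fed library 5 had 13 CPM, while the other pair-fed libraries lay between 3.18 and 5.41 CPM. Igtp shares exon sequence with Irgm2 on the same strand.

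The antigen presentation genes comprised class I chains and peptide-processing genes. B2m, the light chain of class I molecules, had 94.8 to 156 CPM in pair-fed risperidone (median 119), 87.6 to 123 CPM in ad libitum risperidone (median 92.3) and 98.5 to 180 CPM in control libraries (median 116). Its log2 fold change was -0.32 ± 0.126 in ad libitum risperidone against control (adjusted p = 0.301 in the edgeR test) and -0.00 ± 0.131 in pair-fed risperidone against control. The class I heavy chains H2-K1 and H2-D1 gave -0.46 and -0.31 in ad libitum risperidone against control, and -0.10 and -0.02 in pair-fed risperidone against control.

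Psmb8 and Psmb9, catalytic subunits of the immunoproteasome, and Tap1, a subunit of the peptide transporter, had fold changes of 0.39, 0.20 and 0.23 in pair-fed risperidone against control. Psmb8 had 1.55 to 3.12 CPM in pair-fed risperidone (median 1.95), 1.18 to 1.80 CPM in ad libitum risperidone (median 1.67) and 1.03 to 2.67 CPM in control libraries (median 1.59). The groups overlapped throughout, and the adjusted p of Psmb8 in pair-fed risperidone against control was 0.792. In ad libitum risperidone against control, Psmb8 was at -0.08, Tap1 at 0.03 and Psmb9 at -0.37, and all 3 intervals include 0. Psmb9 and Tap1 overlap on opposite strands of chromosome 17, and since the strand setting of the counting is not given, their counts cannot be fully separated.

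Per kilobase of exon sequence, levels in control libraries spanned 0.134 CPM per kb for Zbp1 to 143 CPM per kb for B2m. Ifitm3 (24.3), H2-D1 (21.1), Ifi27 (17.2), Ifit3 (10.5) and H2-K1 (9.38 CPM per kb) followed B2m, and the lowest of the tested genes was Ifi44 (0.194). The genes with the largest negative fold changes in ad libitum risperidone, Ifit1 and Irf7, stood at 2.35 and 1.0 CPM per kb. Fold changes did not separate genes by promoter letters: in ad libitum risperidone against control the median was -0.33 for the 15 genes with the ISRE letters and -0.30 for the 12 without. The 12 lack only these exact letters in these windows, so this does not compare genes with and without a working element. Of the 12, the windows of Irf9, Psmb8, Psmb9 and H2-D1 lie inside the GENCODE span of the gene.

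Because the genes varied together between libraries, each library was described by its mean log2 deviation from the control mean over the 32 tested genes. In pair-fed risperidone these means were -0.00, -0.11, -0.40, -0.15, 0.49 and 0.16 for libraries 1 to 6 (SD 0.303). In ad libitum risperidone they were -0.59, -0.18, -0.29, -0.30, -0.02, -0.36 and -0.30 for libraries 1 to 7 (SD 0.172), and in control libraries -0.09, -0.20, 0.16, 0.34, 0.01, 0.05 and -0.28 (SD 0.212). All 7 ad libitum risperidone libraries thus lay below 0, but control library 7, at -0.28, lay below ad libitum risperidone libraries 2 and 5. The pair-fed group was the most spread.

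Single libraries held the extremes of many genes at once. Pair-fed library 5 was the highest of its group for 28 of the 33 genes, against 17.0% of all tested genes, and in log2 CPM its values were above the control mean for all 32 tested genes. For Trim30a this held on the log2 scale only, with 2.89 CPM against a control mean of 2.93 CPM. Pair-fed library 3 was the lowest for 26, against 18.7% of all genes. In ad libitum risperidone, library 5 was the highest for 17 (10.7% of all genes) and library 1 the lowest for 14 (23.2%). Among control libraries, library 4 was the highest for 17 (16.9%) and library 7 the lowest for 14 (15.4%).

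**Figure D3:**
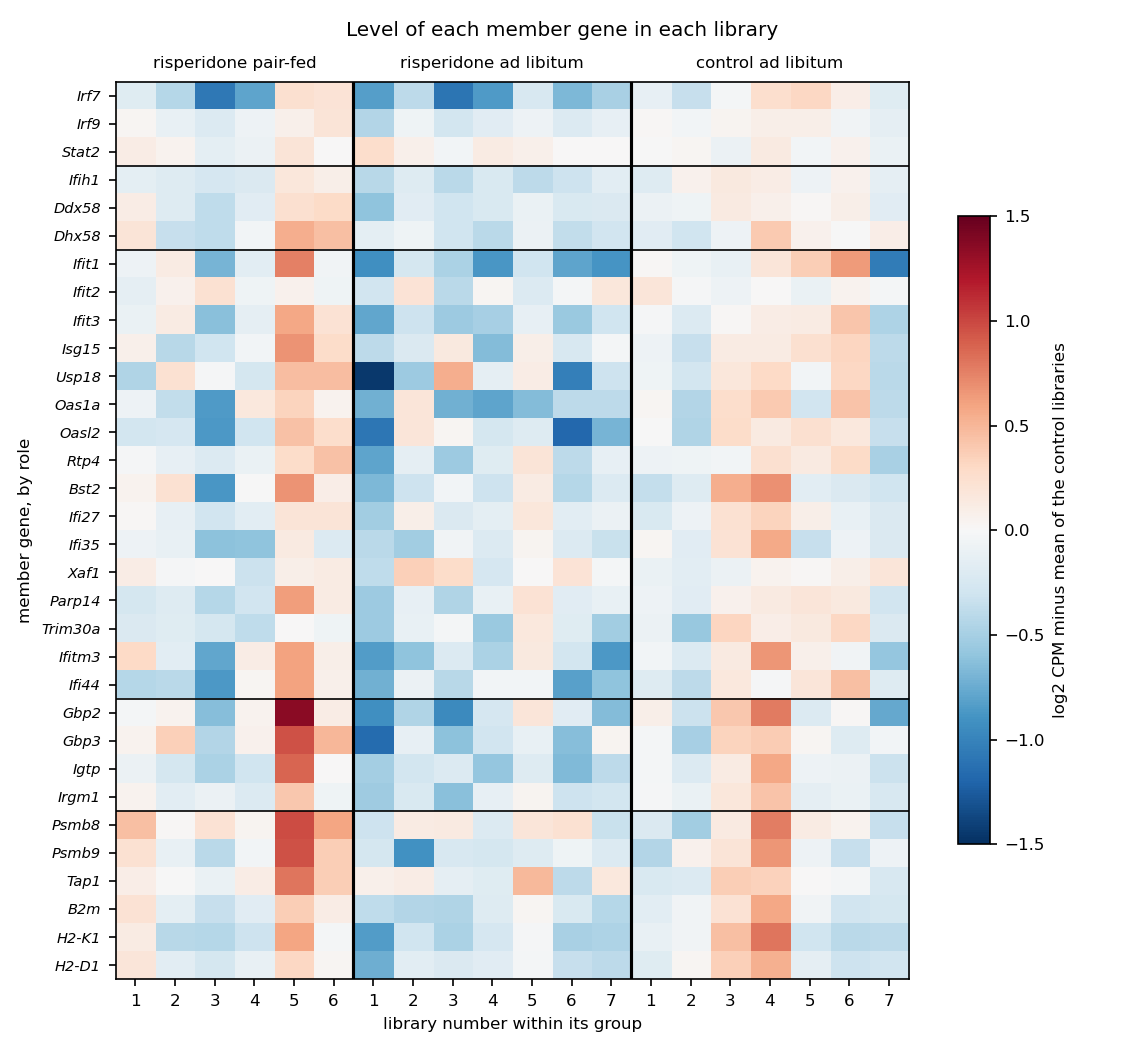
Log2 CPM of the 32 tested genes (rows, grouped by role) in the 20 libraries (columns, by group), as the difference from the mean of the control libraries (colour, red above and blue below). Pair-fed library 5 and control library 4 are red for most genes, with pair-fed library 5 highest for the GTPases and Psmb8, Psmb9 and Tap1, while pair-fed library 3 and ad libitum library 1 are blue for most.

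The direction in ad libitum risperidone against control did not rest on a single library. With each of the 20 libraries left out in turn, the median log2 fold change stayed between -0.36 and -0.22, and 28 to 30 of the 32 genes lay below 0. The number at an unadjusted p under 0.05 did depend on 2 libraries: it was 6 without control library 4 and 8 without ad libitum library 1, against 13 with all libraries and 10 to 17 in the other cases. Leaving out libraries 1 and 3 of ad libitum risperidone gave a median of -0.27 and 7 genes at that threshold. Without libraries 1 and 2, the highest in markers of cortex, hippocampus and amygdala, the median was -0.25, with 29 of 32 genes below 0 and 8 at that threshold. Without libraries 1, 2, 5 and 6, the median of the interferon response and antigen presentation genes was -0.29, with 32 of 33 below 0 and 9 at that threshold. The median of those markers was then 0.01, which follows from the choice, since these libraries were left out for being high in them. This fit kept ad libitum libraries 3, 4 and 7, of which library 3 had 9748005 counts. Libraries 3 and 7 were also below every control library in summed hypothalamus markers. The exclusions of libraries 1 and 2 and of libraries 1, 2, 5 and 6 were chosen after seeing the data. No gene was called in any of these fits.

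The size of the difference between pair-fed and ad libitum risperidone depended more on pair-fed library 5. Without it the median log2 fold change was 0.20, against 0.30 with all libraries, and 4 genes, against 15, had an unadjusted p under 0.05. Without pair-fed library 6 the count was 9, and without pair-fed library 3 it was 19, with a median of 0.39. Without ad libitum library 1 the median was 0.24 and the count 11, without ad libitum libraries 1 and 2 they were 0.27 and 6, and without ad libitum libraries 1, 2, 5 and 6 they were 0.30 and 10. The direction was above 0 for at least 28 of the 32 genes in every one of the 20 fits.

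In pair-fed risperidone against control the balance of directions turned on single libraries. Without pair-fed library 5, 27 of the 32 genes lay below 0 and the median was -0.09. Without pair-fed library 3, 8 lay below 0, and without control library 4, 9 did, with a median of 0.06 in both cases. For the mean of both risperidone groups the median ranged from -0.20 without pair-fed library 5 or control library 7 to -0.07 without control library 4, and the number at an unadjusted p under 0.05 was 9 without pair-fed library 5, 6 without control library 7 and 5 without ad libitum library 5, against 3 with all libraries.

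**Figure D4:**
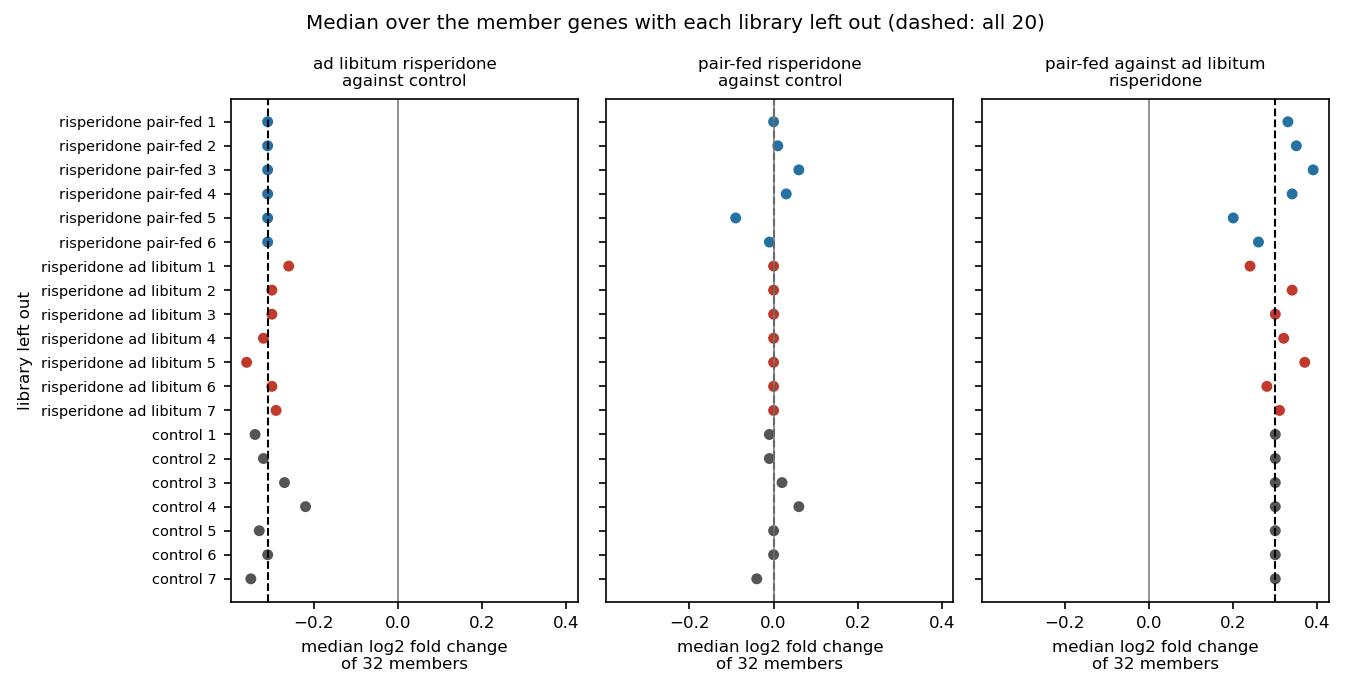
Median log2 fold change over the 32 tested genes (x axis) with each library left out in turn (rows), in 3 comparisons, and with all 20 libraries (dashed line). In ad libitum risperidone against control the points stay between -0.36 and -0.22, in pair-fed risperidone against control they lie on both sides of 0, and in pair-fed against ad libitum risperidone the lowest is 0.20, without pair-fed library 5.

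Other genes of the interferon pathway and of antigen presentation, 136 in 7 lists of which 117 were tested, gave smaller medians in the same directions when pooled, although single lists differed. None rose or fell in any comparison by edgeR. Their median log2 fold change was -0.10 in ad libitum risperidone against control, -0.00 in pair-fed risperidone against control and 0.10 in pair-fed against ad libitum risperidone. At an unadjusted p under 0.05, 20 were lower (17.1%, against 5.97% of all genes) and 1 higher (0.855%, against 7.14%) in ad libitum risperidone against control. In pair-fed risperidone against control, 9 were lower (7.69%, against 3.60%) and 3 higher (2.56%, against 3.06%). In pair-fed against ad libitum risperidone, 1 was lower (0.855%, against 7.44%) and 18 were higher (15.4%, against 6.09%). DESeq2 called none of them. By limma-voom, 1 was called in pair-fed risperidone against control (Gbp9, log2 fold change 0.59, adjusted p = 0.0268), where 1.25% of all genes were called, and 1 in pair-fed against ad libitum risperidone (Calr, the chaperone calreticulin, -0.20, adjusted p = 0.0159), where 0.777% were. With 117 genes, 1 call is near those shares. It called none in ad libitum risperidone against control or in the mean of both risperidone groups, against 0.285% and 0.844% of all genes.

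None of the 8 interferon genes examined reached the low-count filter: Ifnb1, Ifna4 and Ifnl2 had 0 counts in all 20 libraries and Ifng stayed at or below 0.302 CPM. Receptors, kinases and STATs showed no common direction, with 8 of 16 below 0 in ad libitum risperidone against control, and adaptors of sensing and other IRFs had 10 of 17 below 0. Other type I interferon-induced genes had 37 of 46 below 0 there, with a median of -0.15. Other class I presentation genes had 16 of 20 below 0, with a median of -0.11. Among the type I interferon-induced genes, Ifi27l2a stood at -0.96 on the log2 scale, with a 95% interval from -1.55 to -0.38, and Ifi207 at -1.09, with an interval from -1.78 to -0.40. Their adjusted p in the edgeR test was 0.187 and 0.196. In pair-fed risperidone against control, Ifi27l2a stood at -0.07 and Ifi207 at -0.84 (-1.52 to -0.15, adjusted p = 0.566 in the edgeR test). Levels of Ifi207 were at most 1.41 CPM in any library.

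Other GTPases of the Gbp and Irg families were high in the same libraries. Summed over 13 genes, they had 69.7 CPM in pair-fed library 5, against 21.2 to 28.2 CPM in the other pair-fed libraries, 18.8 to 26.8 CPM in ad libitum risperidone and 21.3 to 41.4 CPM in control libraries, where library 4 was the highest. Gbp4 reached 11.6 CPM and Iigp1 6.01 CPM in pair-fed library 5, against 6.12 and 4.40 CPM in control library 4. All 9 tested genes of this list lay above 0 in pair-fed risperidone against control, with a median log2 fold change of 0.28. The median of the list was -0.31 in ad libitum risperidone against control and 0.59 in pair-fed against ad libitum risperidone. Gbp9 stood at 0.56 on the log2 scale in pair-fed risperidone against control, where its 95% interval ran from 0.23 to 0.89 and its edgeR adjusted p was 0.195. Tlr7, a receptor for single-stranded RNA, had -0.58 in the same comparison (-0.92 to -0.24, adjusted p = 0.191).

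The class II genes, which are expressed by professional antigen-presenting cells, had 8 of 9 fold changes below 0 in ad libitum risperidone against control and a median of -0.33. H2-Ab1 gave -1.20, Cd74, the invariant chain, -1.04 and H2-Eb1 -0.94, with adjusted p of 0.263, 0.318 and 0.352 in the edgeR test. In pair-fed against ad libitum risperidone, 7 of 9 class II genes lay above 0, with a median of 0.64. Summed class II levels had medians of 73.4 CPM in pair-fed risperidone, 58.3 CPM in ad libitum risperidone and 72.5 CPM in control libraries. Like the interferon response genes, they were lowest in pair-fed library 3 and highest in pair-fed library 5 within the pair-fed group.

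Markers of cell types that carry interferon responses were summed in the same way. The 16 microglial markers, among them P2ry12 and Tmem119, had medians of 331 CPM (312 to 364) in pair-fed risperidone, 324 CPM (299 to 351) in ad libitum risperidone and 324 CPM (285 to 379) in control libraries. The 14 endothelial markers had medians of 304 CPM in pair-fed risperidone, 313 CPM in ad libitum risperidone and 297 CPM in control libraries. The 12 pericyte and fibroblast markers had 288 CPM (200 to 332) in pair-fed risperidone, 233 CPM (200 to 317) in ad libitum risperidone and 283 CPM (213 to 321) in control libraries. Of these, 9 of 11 tested were below 0 in ad libitum risperidone against control, with a median log2 fold change of -0.37. Border macrophage and monocyte markers had medians of 8.95 CPM (4.75 to 11.2) in pair-fed risperidone, 6.96 CPM (3.99 to 12) in ad libitum risperidone and 10.8 CPM (3.63 to 14.8) in control libraries, and all 5 tested lay below 0 in both risperidone groups against control.

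Ependymal markers, of the cells that line the ventricles, had fold changes close in size to those of the interferon response and antigen presentation genes. Their sum had medians of 78.6 CPM (68.0 to 90.3) in pair-fed risperidone, 68.0 CPM (48.4 to 78.2) in ad libitum risperidone and 82.0 CPM (71.8 to 84.4) in control libraries, and 5 of the 7 ad libitum risperidone libraries lay below every control library. All 8 lay below 0 in ad libitum risperidone against control and 7 had an unadjusted p under 0.05, with a median log2 fold change of -0.32. All 8 lay above 0 in pair-fed against ad libitum risperidone, 7 of them at that threshold, with a median of 0.32, and none was called in either comparison. Without ad libitum libraries 1, 2, 5 and 6 these medians were -0.18 and 0.14. The libraries below every control library in ependymal markers were 1, 2, 5, 6 and 7. The smaller medians thus follow in part from the choice of libraries left out. Blood markers, such as haemoglobin genes, had medians of 123 CPM in pair-fed risperidone, 74.0 CPM in ad libitum risperidone and 96.8 CPM in control libraries, with a median log2 fold change of 0.57 over 5 tested genes in pair-fed against ad libitum risperidone.

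The summed markers of microglia, border macrophages, and pericytes and fibroblasts were lowest in pair-fed library 3 and highest in pair-fed library 5 among pair-fed libraries, as were most interferon response genes. Among ad libitum risperidone libraries, library 5 was the highest for these 3 lists and for 17 of the 33 genes. The lowest was library 3 for microglia and library 7 for the other lists, while library 1 was lowest for 14 genes. Among control libraries, library 4 was highest for 17 genes and for pericytes and fibroblasts, but library 3 for microglia and library 1 for border macrophages. Control library 7 was lowest for these 3 lists and for 14 genes. Other lists differed within the pair-fed group. Endothelial markers were lowest in pair-fed library 4 and highest in library 1, and astrocyte markers lowest in library 2 and highest in library 4. Neuronal markers were lowest in pair-fed library 5 and highest in library 3. Elsewhere, endothelial markers were highest in ad libitum library 5 and control library 4, and lowest in ad libitum library 1 and control library 6. Markers of lymphocytes and granulocytes summed to between 0.648 and 2.12 CPM in all libraries, none of the 12 passed the low-count filter, and Ly6g was at 0 in all. The part of these cell types and regions in the levels of the interferon response and antigen presentation genes was not tested.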

How the data were processed

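Hypothalamus RNA was sequenced as paired-end reads of 150 bp in 20 libraries, per the labels' protocols. The authors deposited raw counts of reads per gene, and STAR, featureCounts and DESeq2 with the builds GRCm38 and mm10 are named per the submitters' processing notes. Versions, annotation release and strand setting were not given in the sources used here. Genes were matched by identifier to the GENCODE annotation of GRCm38, and promoters to RefSeq by symbol. The 33 genes, the lists and the tests were chosen with earlier results of these data known.

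With edgeR 4.0.16 in R 4.3.3, the quasi-likelihood F test was run on the counts as deposited, with TMM scaling, filterByExpr at a minimum count of 10 and 1 coefficient per group over all 20 libraries, which left 17893 genes and a common biological coefficient of variation of 11.26%. Tests were two-sided, with Benjamini-Hochberg adjustment over all genes tested and calls at an adjusted p under 0.05. Levels are TMM-scaled CPM, and log values used a prior count of 2. No 2 libraries of a group agreed within sampling noise (57 pairs, lowest chi-square per degree of freedom 2.64). The fit was tested on simulated data with 200 changed genes. Values by library were given for the 5 genes with the smallest p in each comparison and 1 gene per role with the highest mean CPM. Alternatives were RLE and upper quartile scaling, DESeq2 1.42.0, limma-voom (limma 3.58.1) with quality weights, no filter or a mean of at least 1 CPM, robust dispersions, a replicate block, the compared groups alone, and libraries left out.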

Additional observations from a re-analysis of the deposited data

Results flagged for a closer look

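In 9 of 99 combinations of gene and group, the highest or lowest library stood apart from the rest of its group by Dixon's criterion. Chance meets it in about 1 of 20 independent groups of normally distributed values. The genes varied together between libraries and some rest on few reads, so the 9 cannot be set against that rate. Pair-fed library 5 held 3 of the 9, with 13 CPM for Gbp2 (next highest 5.41), 9.35 CPM for Igtp (next 5.09) and 1.78 CPM for Zbp1 (next 0.503). Control library 4 held 2, with 7.64 CPM for Igtp (next highest 5.52) and 2.67 CPM for Psmb8 (next 1.68). In pair-fed library 4, Xaf1 was low at 4.51 CPM (next lowest 5.61). In ad libitum risperidone, Ddx58 was low in library 1 at 5.44 CPM (next 6.76), Psmb9 was low in library 2 at 0.574 CPM (next 0.962), and Oas1a was high in library 2 at 0.887 CPM (next 0.562). The genes of low level rest on few reads, and the cause of these values was not tested.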

How the results depend on the processing

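Under 32 other settings in 4 comparisons, 2 of them added after seeing the data, no gene of the set was called. The median log2 fold change ranged from -0.36 to -0.22 in ad libitum risperidone against control, -0.09 to 0.06 in pair-fed risperidone against control, 0.20 to 0.39 in pair-fed against ad libitum risperidone and -0.20 to -0.07 in the mean of both risperidone groups. The smallest adjusted p of any setting was 0.0799 (Irf7, DESeq2), 0.326, 0.0704 (Ifit3, without pair-fed library 3) and 0.225 in these comparisons. Same-numbered libraries showed little shared variation over the tested genes (19 pairs, correlation -0.158 to 0.304, median -0.0255, 2 over 0.1). A pairing that leaves little trace over all genes would not be seen this way, so pairing by number is not excluded. With a replicate block the medians were -0.30, -0.02, 0.28 and -0.17, and no gene was called. Over all genes, DESeq2 called 102 in ad libitum risperidone against control and limma-voom 51, against 11 by edgeR. Genes under about 1 CPM, such as Oas1a and Zbp1, rest on few reads, which limits what could be detected for them.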
